A study of Mus musculus with 95 samples.

Results

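HPC-2 libraries taken early after transplant were set against HPC-2 libraries taken late. HPC-2 is a population of multipotent progenitors sorted from mouse bone marrow, and the comparison asks what differs between the first weeks of blood regeneration and the months after it. The members are 14 of the 95 libraries of the series, chosen by the week in their titles: 6 early libraries (3 each at 3 and 4 weeks) and 8 late libraries (3 at 10 weeks, 2 at 13 weeks and 3 at 16 weeks). Of the 31 HPC-2 libraries, those at 5, 6 and 8 weeks and at steady state stood outside the comparison. Replicate 1 at 13 weeks was left out because its counts nearly equalled those of an HSC library at steady state.

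All 14 libraries came from B6.SJL mice, labelled as 8 to 12 weeks of age, that had been irradiated with 900 cGy and given 8000 LSK cells, the bone marrow fraction without lineage markers that carries cKIT and SCA-1. The labels do not say whether strain and age are those of the donor or of the recipient, and recipients may keep some blood cells of their own. RNA was copied and amplified from sorted cells by SMART-Seq v4, a method for small inputs, and sequenced in bulk. The labels give 1 sort gate for every population, with CD48 absent and CD150 present, which is the gate of HSC. One early library, 3wk replicate 1, carries a treatment label of untreated although its title gives 3 weeks, and the title was followed. The labels do not say that libraries came from separate animals, so a p measures the spread between these samples, which may be technical. In bulk samples fewer cells of a type and less RNA per cell cannot be told apart.

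Total counts ran from 4766628 to 8492759 over the 14 libraries. Detected genes, those with at least 1 count, numbered 11949 to 14985 early (median 13346) and 4903 to 13986 late (median 10295). The difference of the means, 13350 early against 10440 late, had a two-sided exact permutation p of 0.0446 over 3003 arrangements. The lowest were 16wk replicate 1 (4903 genes) and 16wk replicate 2 (7563 genes), and the late mean was 11840 without them. Mitochondrial genes took a median of 1.51% of counts early and 0.561% late. Replicate 3 of weeks 3 and 4 held 0.32% and 0.81%, and the 10-week libraries 1.11% to 2.00%. The counts of 4wk replicate 1 and 5wk replicate 2 differed by a chi-square of 1.24 per degree of freedom, against 28.5 or more for every other pair that holds 1 of the 14 libraries. The excluded 13wk replicate 1 stood at 4.5 from its HSC partner. Values without the 2 libraries of few detected genes are given beside the results they move most, and the part of the mitochondrial share was not tested.

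**Figure D1:**
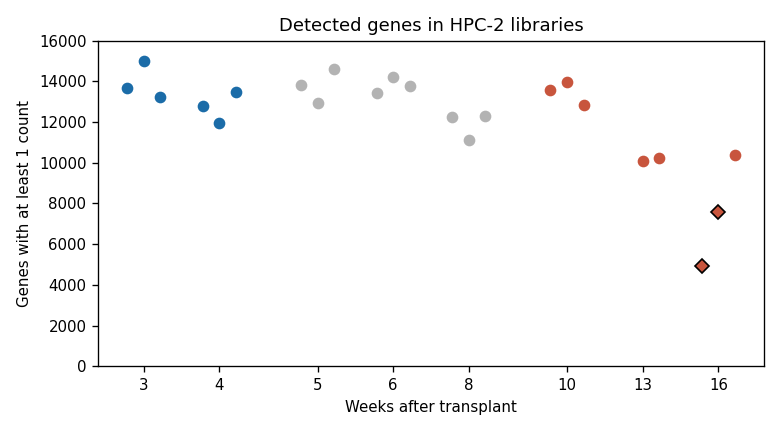
Genes with at least 1 count in each transplanted HPC-2 library, by week (blue early, red late, grey the weeks between, left to right by replicate number, 13wk replicate 1 not shown). The 2 outlined diamonds are 16wk replicates 1 and 2, at 4903 and 7563 genes, below the 11949 of the lowest early library.

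Marker transcripts were those of the name HPC-2, not of the gate in the labels. In mouse LSK cells the name stands for cells with both CD150 (encoded by Slamf1) and CD48. Cd48 was measured at 258, 634 and 966 CPM (lowest, median and highest; CPM is the count of a gene scaled to the total of its library) in the early libraries and at 136, 219 and 795 CPM in the late ones, while early HSC libraries held 0 to 65.6 CPM. Slamf1 had medians of 78.2 CPM early and 68.7 CPM late. Dntt and Flt3, which mark the lymphoid-primed HPC-1, had medians of 0 and 0.182 CPM early and reached at most 31.8 and 73.7 CPM late, against medians of 866 and 192 CPM in early HPC-1. The HSC genes Fgd5 and Procr were at or near 0 in all 14 libraries, with 4.69 CPM of Procr in 1 early library as the highest value. Mecom and Hlf, both HSC transcription factor genes, reached 220 and 247 CPM in 16wk replicate 1, against at most 37.7 and 13.3 CPM early.

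Interferons bind cell-surface receptors that act through Janus kinases, and the genes they switch on include 2 families of GTPases (the immunity-related GTPases and the guanylate-binding proteins), the catalytic subunits of the immunoproteasome and the peptide loaders of MHC class I. In blood stem and progenitor cells interferon signals are known to move resting cells into division and, when prolonged, to impair them. Annexins are proteins that bind membrane phospholipids when calcium is present, and they take part in vesicle traffic, membrane repair and the damping of inflammation.

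The promoters of the GTPases are shown first because the fitted changes of the well-expressed ones were all negative. Both sequences are the 250 bases before the RefSeq start on GRCm38.p6, read 5′ to 3′ on the strand of the gene, with no annotated exon in the window. Capitals mark matches, on either strand, to a pair of GAAA words 2 bases apart, the interferon-stimulated response element which binds complexes that hold an IRF factor, and to TTCNNNGAA, the gamma-activated site of genes that answer gamma interferon. Igtp lies on the plus strand, chr11:58199306-58199555, and Tgtp2 on the minus strand, chr11:49064213-49064462.
Igtp: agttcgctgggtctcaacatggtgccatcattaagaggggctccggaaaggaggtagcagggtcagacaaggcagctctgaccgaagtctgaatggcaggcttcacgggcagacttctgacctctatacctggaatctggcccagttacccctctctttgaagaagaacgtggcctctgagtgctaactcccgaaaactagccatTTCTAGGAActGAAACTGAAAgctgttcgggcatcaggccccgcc
Tgtp2: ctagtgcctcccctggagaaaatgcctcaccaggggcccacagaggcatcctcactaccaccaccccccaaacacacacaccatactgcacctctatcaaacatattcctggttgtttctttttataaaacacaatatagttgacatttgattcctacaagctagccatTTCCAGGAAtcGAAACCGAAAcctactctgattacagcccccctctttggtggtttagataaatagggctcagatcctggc

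In each window the gamma-activated site stood 2 bases before the response element, 24 bases from the start in Igtp and 60 in Tgtp2. The same 21-base arrangement was found in Tgtp1 (chr11:48992314-48992334, minus strand) and Irgm2 (chr11:58214902-58214922, plus strand), and the 4 copies are set side by side to show what they share.
Igtp: TTCTAGGAActGAAACTGAAA
Irgm2: TTCCAGGAActGAAACTGAAA
Tgtp1: TTCCAGGAAtcGAAACTGAAA
Tgtp2: TTCCAGGAAtcGAAACCGAAA
Of 32851 promoter windows of the same length in the RefSeq table, 2.98% held the response element, 7.02% the gamma-activated site, 0.332% both, and 5 windows (0.0152%) this arrangement. The fifth belongs to Gm12185, and all 5 are on chromosome 11. Promoters were found for 9 of the 10 well-expressed GTPase genes: 8 of the 9 held the response element and 5 held both motifs. Among 18 promoters of the type I interferon response list, 5 held the response element, 5 the gamma-activated site and 2 both. Among 12 annexin and S100 promoters found, 0 held either motif, and among 15 of the immunoproteasome and MHC class I list, 3 held the response element and 1 the gamma-activated site. The response element was in 1 of 11 constitutive proteasome, 1 of 13 megakaryocyte and 0 of 11 erythroid promoters. A match is a run of letters, not evidence of binding, and a window without one says nothing of these factors.

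No gene passed the test of late against early. Of 10274 genes tested with the edgeR quasi-likelihood test, 0 (0%) were called higher and 0 lower at a Benjamini-Hochberg adjusted p under 0.05. The lowest adjusted p, 0.0521, belonged to Gstp3, a glutathione transferase gene with a mean of 2.23 CPM, and every tested gene named below had an adjusted p of 0.9999 in this fit. At an unadjusted p under 0.05 there were 51 genes higher late and 83 lower. Among the 8266 well-expressed genes, those whose mean over the 14 libraries reached 10 CPM, 51 were higher (0.617%) and 42 lower (0.508%) at that threshold. Without 16wk replicates 1 and 2 the counts called stayed at 0, and 97 and 66 well-expressed genes had an unadjusted p under 0.05. DESeq2 called 2 genes higher, Anxa4 and Fanci (adjusted p of 0.0430 each), and 0 lower, and limma voom with sample weights called 0 higher and 4 lower, all under 10 CPM. The median log2 change of late minus early was -0.16 over all genes tested and -0.11 over well-expressed genes, and -0.04 and 0.01 with RLE scaling. For well-expressed genes it was 0.16 with detected genes as a covariate and -0.02 without 16wk replicates 1 and 2, and list medians of those fits are to be read against these. The values that follow describe these 14 libraries, and for each list the median of the 8266 genes is the level to read it against.

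Interferon receptors and transducers were mostly lower late. Of 15 well-expressed genes of the list, 12 had a negative log2 change and 3 a positive one, with a median of -0.46. Ifngr1, the ligand-binding chain of the gamma interferon receptor, had medians of 292 and 264 CPM (log2 change -0.46, SE 0.29). Irf1, a transcription factor induced by interferon, had medians of 73.4 and 37.8 CPM with 1 late library at 0 (log2 change -0.96, SE 0.92). For both genes the groups overlapped, with 2 and 3 late libraries below every early one.

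All 10 well-expressed interferon-induced GTPases had a negative fitted log2 change from early to late, and none passed the test. The list holds 19 genes, of which 10 were well expressed; the 9 others had a mean under 10 CPM, and among them Mx1 had medians of 0 in both groups. The log2 changes ran from -2.49 to -0.35 with a median of -1.49 against -0.11 for well-expressed genes. Tgtp1, Tgtp2, Igtp and Iigp1 had an unadjusted p under 0.05. With RLE scaling all 10 were again negative (median -1.42), as they were without 16wk replicates 1 and 2 (median -1.54, 6 genes with an unadjusted p under 0.05) and with detected genes as a covariate (median -1.34, 3 genes).

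Igtp (chr11:58199556-58207591, plus strand; genome positions of genes are from GENCODE M21 on GRCm38), also called Irgm3, encodes a GTPase of the membrane around engulfed pathogens and of lipid droplets. It was measured at 124, 239 and 439 CPM early and 24.8, 95.3 and 213 CPM late, 3.02-fold higher early (log2 change -1.59, SE 0.41). All 8 late libraries lay below the early median and 6 below the lowest early library; the highest late value was in 16wk replicate 1. By week the means were 336 CPM at week 3, 200.4 at week 4, 70.7 at week 10, 78.3 at week 13 and 143 at week 16.

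Tgtp2 (chr11:49057194-49064206, minus strand) encodes a T-cell-specific GTPase of the same family that helps to break pathogen vacuoles. It stood at 320, 405 and 740 CPM early and 43.1, 123 and 324 CPM late (log2 change -1.59, SE 0.45; 3.02-fold higher early). The groups overlapped by 1 library, with 7 of 8 late libraries below the lowest early one. The late range split by week: the 10-week libraries were at 199 to 324 CPM and the 5 later ones at 43.1 to 130.

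Tgtp1 (chr11:48985327-48994172, minus strand), its close copy, was at 105.5, 165 and 304 CPM early and 0.347, 25.7 and 105 CPM late. Every late library was below every early one, and the log2 change was -2.49 (SE 0.76). Of all 50-base stretches in the longest Tgtp1 transcript, 89.4% also occur in Tgtp2, so reads of the pair can be assigned to either gene or dropped, and the split between them is uncertain. Among well-expressed genes 3 (0.0363%) were higher late and 8 (0.0968%) lower with no overlap of the groups, and Tgtp1 is 1 of the 8. Without 16wk replicates 1 and 2 its adjusted p was 0.194 with edgeR and 2.46e-05 with DESeq2. That DESeq2 fit was chosen after the values were seen, and DESeq2 on the 14 libraries did not call Tgtp1.

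Iigp1, the immunity-related GTPase of the interferon response best studied in cells infected by parasites, was at 147, 303 and 430 CPM early and 0, 61.9 and 195 CPM late (log2 change -2.19, SE 0.84). The 0 and the 195 both came from the 16-week libraries with few detected genes, and 7 of 8 late libraries were below the lowest early one. Of the 6 other well-expressed GTPases, Gbp3, Gbp2, Irgm2, Irgm1 and Gbp7 had early medians of 62.3, 127, 62.8, 296 and 173 CPM and late medians of 18.9, 38.3, 13.0, 186 and 102 CPM. Ifi47 was the member with the smallest difference, at medians of 787 CPM early and 880 CPM late and a log2 change of -0.35 (SE 0.28).

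**Figure D2:**
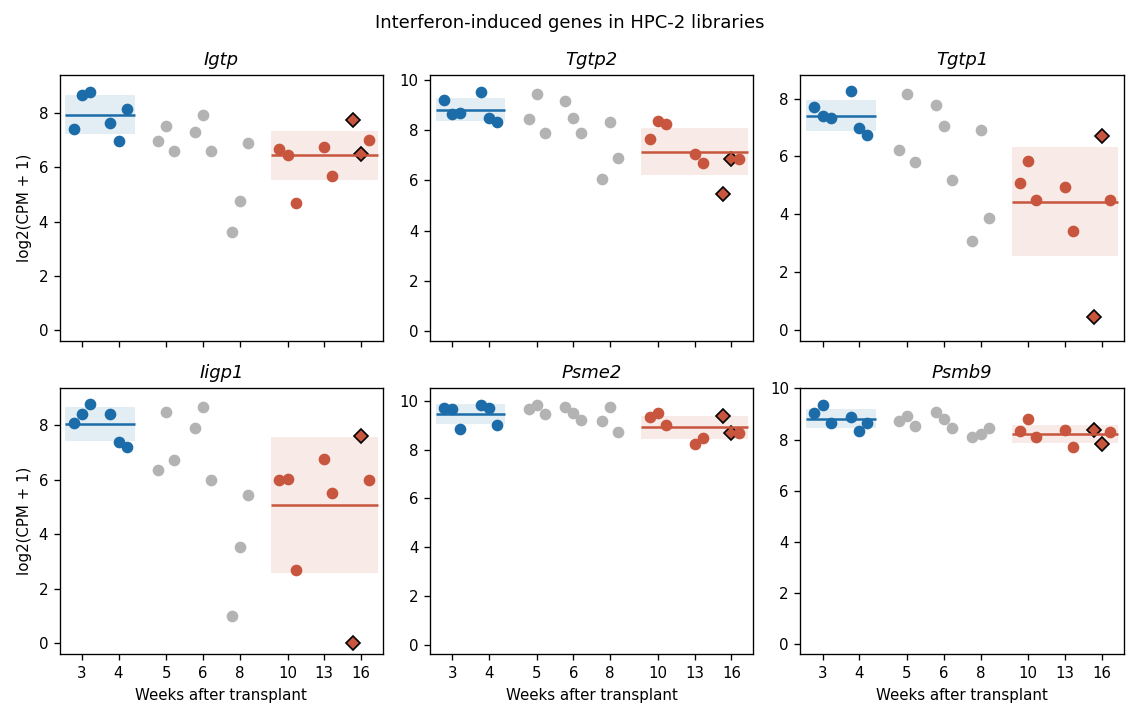
Levels, as log2(CPM + 1), of 6 interferon-induced genes in each transplanted HPC-2 library by week (blue early, red late, grey the weeks between; lines and bands are the mean and 1 SD of the early and the late libraries; diamonds are 16wk replicates 1 and 2). All 8 late libraries lie below all 6 early ones for Tgtp1, and 7 of 8 do for Tgtp2 and Iigp1, while the groups overlap for Psmb9.

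Genes of the type I interferon response were also mostly lower late, at low levels. Of 23 well-expressed members 19 had a negative change and 4 a positive one, with a median log2 change of -0.89. Ifit1, an antiviral protein that binds foreign RNA, had the largest difference of the list. It was at 0, 33.6 and 52.8 CPM early and at 0, 0 and 9.95 CPM late, where 5 of 8 libraries had no count (log2 change -4.07, SE 1.74). The early library at 0 was 4wk replicate 2. Ifitm3, an endosomal membrane protein that blocks virus entry and the most abundant of the list, had medians of 1432 CPM early and 688 CPM late (log2 change -0.82, SE 0.44). Its levels also split within the groups. Replicate 3 of weeks 3 and 4 was at 506 and 473 CPM, and 10wk replicates 2 and 3 were at 1456 and 1349 CPM. The source of this split was not tested. Sp100, a nuclear body protein, went the other way at medians of 149.8 and 221 CPM (log2 change 0.36, SE 0.44). With detected genes as a covariate the median of the list was -0.17, with 15 of 23 negative.

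The immunoproteasome is a form of the proteasome whose exchanged subunits cut peptides for MHC class I. Of 18 well-expressed genes of the immunoproteasome and MHC class I list 17 had a negative log2 change, with a median of -0.30, and 2 an unadjusted p under 0.05. Psmb9 (chr17:34181987-34187764, minus strand), one of the 3 exchanged catalytic subunits, was at 321, 436 and 661 CPM early and 205, 319 and 442 CPM late, 1.66-fold higher early (log2 change -0.73, SE 0.27). The groups overlapped, with 7 of 8 late libraries below the early median and 4 below all early libraries. Psme2, a subunit of the proteasome activator PA28, was at 466, 831 and 907 CPM early and 299, 464 and 737 CPM late (log2 change -0.71, SE 0.30). All 8 late libraries were below the early median of Psme2. Its levels also split within the groups. Replicate 3 of weeks 3 and 4 was at 466 and 513 CPM, and 10wk replicate 2 at 737 CPM.

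The 2 other catalytic subunits of the immunoproteasome moved less than Psmb9, but the constitutive proteasome was lower too. Psmb8 and Psmb10, the other exchanged subunits, had medians of 760 and 320 CPM early and 747 and 325 CPM late. B2m, the light chain of MHC class I, had medians of 4525 and 2370 CPM with overlapping groups (log2 change -0.68, SE 0.40), and H2-D1, a heavy chain, had medians of 1064 and 1426 CPM (log2 change 0.04, SE 0.33). B2m split as Ifitm3 did. Replicate 3 of weeks 3 and 4 was at 1764 and 2652 CPM, and 10wk replicates 2 and 3 at 5444 and 4842 CPM. The 14 constitutive proteasome genes had a median log2 change of -0.44, with 13 negative, below the -0.30 of the immunoproteasome and MHC class I list. With detected genes as a covariate the median of the immunoproteasome list turned to 0.12 with 13 of 18 positive, while 11 of 14 constitutive genes stayed negative (median -0.14). RLE scaling gave 13 of 18 negative (median -0.19), and leaving out 16wk replicates 1 and 2 gave 12 (median -0.20).

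The MHC class II list had a median log2 change of 1.38 over 7 well-expressed genes, and -0.69 without 16wk replicates 1 and 2. Cd74, the invariant chain, was at 34.8, 75.0 and 150 CPM early and 0, 27.0 and 9375 CPM late; 7 of 8 late libraries were below the lowest early one and 16wk replicate 2 alone was above. Its log2 change was 3.73 (SE 1.82), and -2.12 (SE 1.06) without that library. The same library held the highest summed level of 5 macrophage markers, 2960 CPM, against at most 361 CPM early.

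The annexins Anxa1, Anxa2, Anxa4 and Anxa5 were higher late, with log2 changes of 1.23 to 1.64. The list of annexins, S100 proteins and their partners had 15 well-expressed genes, 9 with a positive change, and a median of 0.36. These 4 were higher and Lgals1 lower at an unadjusted p under 0.05. Without 16wk replicates 1 and 2 the median of the list was -0.04 with 6 of 15 positive, while each of the 4 annexins kept a positive log2 change of 1.01 to 1.38.

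Anxa4 (chr6:86736840-86793584, minus strand), an annexin of epithelial and secretory membranes, was at 54.2, 90.5 and 108 CPM early and 133, 214 and 473 CPM late (log2 change 1.40, SE 0.39; 2.64-fold higher late). No late library reached down to the early range. It was called by DESeq2 (adjusted p of 0.0430), and without 16wk replicates 1 and 2, which held the highest values, its edgeR log2 change was 1.11 (SE 0.32). Anxa2 (chr9:69453620-69491795, plus strand), which with S100A10 forms a membrane complex that binds plasminogen, was at 24.0, 33.2 and 51.7 CPM early and 11.5, 125 and 218 CPM late (log2 change 1.64, SE 0.57). In 7 of 8 late libraries Anxa2 was above every early library, and 10wk replicate 3 was below all of them at 11.5 CPM. Its partner S100a10 had medians of 694 and 423 CPM (log2 change -0.49, SE 0.38).

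Anxa1, the mediator by which glucocorticoids dampen inflammation, was at 52.2, 75.2 and 325.5 CPM early and 155.5, 356 and 665 CPM late (log2 change 1.23, SE 0.49). All late libraries were above the early median, but 3wk replicate 1 and 4wk replicate 1 lay within the late range at 325.5 and 185 CPM. Anxa5, the protein used to stain dying cells for phosphatidylserine, was at 24.8, 115 and 222 CPM early and 53.5, 311 and 1308 CPM late (log2 change 1.60, SE 0.56). The highest value was in 16wk replicate 2, and the log2 change was 1.01 (SE 0.46) without the 2 libraries of few detected genes. Lgals1, a galectin that binds cell-surface glycans, was lower late. It was at 202, 461 and 666 CPM early and 0, 121 and 341 CPM late (log2 change -1.78, SE 0.83). For Lgals1, 6 of 8 late libraries were below the lowest early one. Replicate 3 of weeks 3 and 4 held 202 and 219 CPM of Lgals1, and 10wk replicate 2 held 341 CPM. Neutrophil genes of the same list were uneven within both groups. The summed level of 5 neutrophil markers ran from 0 to 6490 CPM early (median 7.98) and from 0 to 5560 CPM late (median 740). Ngp, 1 of the 5, was at 3314 CPM in 3wk replicate 1 and at most 125 CPM in the other early libraries. The median log2 change of the well-expressed neutrophil genes was 0.36, and 4.17 without 3wk replicate 1. The part of neutrophil RNA in the genes higher late was not tested.

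**Figure D3:**
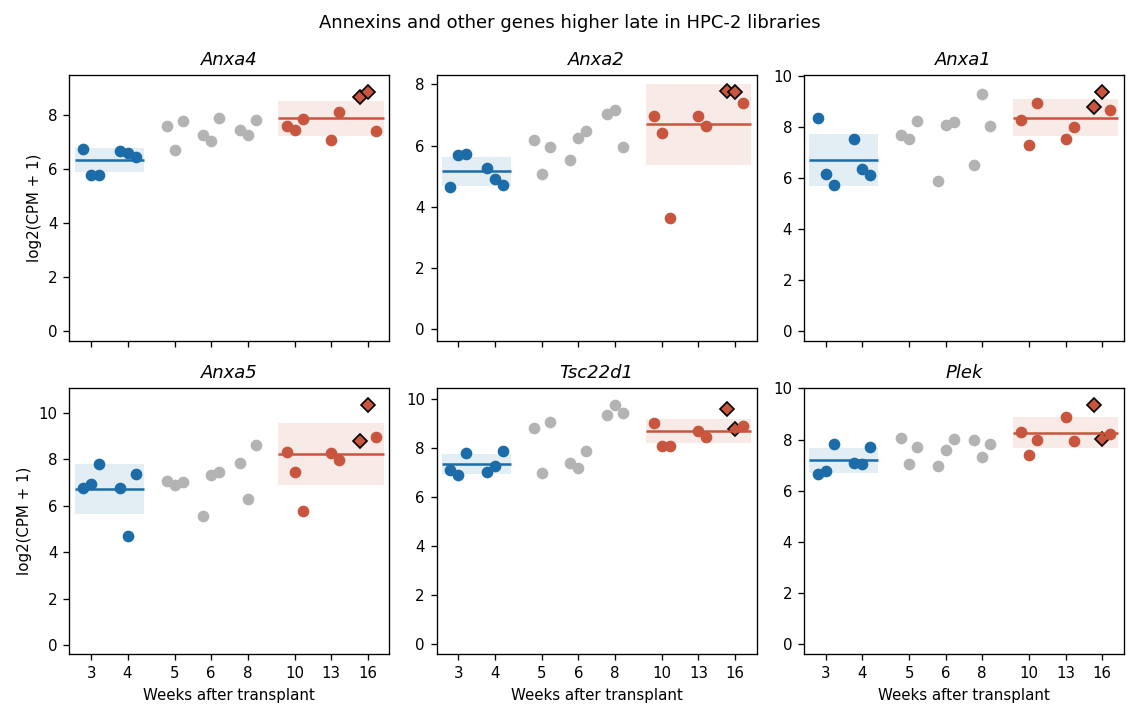
Levels, as log2(CPM + 1), of 4 annexins, Tsc22d1 and Plek in each transplanted HPC-2 library by week, with colours, lines, bands and diamonds as in the plot of interferon-induced genes. For Anxa4 and Tsc22d1 all 8 late libraries lie above all 6 early ones, and for Anxa2 the 10-week library at 11.5 CPM is the one late library below them.

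Among well-expressed genes the leading one higher late was Tsc22d1 (chr14:76414961-76507765, plus strand), a leucine zipper gene induced by TGF-beta and glucocorticoids. It was at 119, 144 and 232 CPM early and 267, 420 and 765 CPM late (log2 change 1.21, SE 0.27; 2.32-fold higher late), with no overlap. DESeq2 without 16wk replicates 1 and 2 called Tsc22d1 (adjusted p of 0.0102). An edgeR fit whose spread was shared with HPC-1 libraries called it too (adjusted p of 0.0475). Both fits were chosen after the values were seen. On the 14 libraries neither edgeR nor DESeq2 called Tsc22d1. Besides Anxa4 and Tsc22d1, Tnfaip8, named here after its values were seen, was the third gene higher late without overlap. Serpinb1a, an inhibitor of neutrophil proteases, was at 108, 191.5 and 275 CPM early and 212, 499.5 and 738 CPM late (log2 change 1.14, SE 0.37), and 7 of 8 late libraries were above all early ones. Tuba8, an alpha-tubulin with a restricted pattern that is found in megakaryocytes and platelets, had medians of 159 and 379 CPM (log2 change 1.04, SE 0.34). Pla2g4a, the phospholipase that frees arachidonic acid, had medians of 108 and 269 CPM (log2 change 1.36, SE 0.44), with 6 of 8 late libraries above the early range. Its highest values, 715 and 864 CPM, were in the 2 libraries with few detected genes, without which the log2 change was 0.75 (SE 0.32). Fanci, a DNA repair gene of the Fanconi pathway, had a median of 4.61 CPM early and 55.9 CPM late; its log2 change of 4.12 (SE 1.26) rests on weeks 13 and 16, since the 10-week libraries averaged 3.13 CPM, within the early range. Its highest value, 455 CPM, was in 16wk replicate 1, and the next was 110.4 CPM. The log2 change was 2.92 (SE 1.16) without 16wk replicates 1 and 2 and 0.82 (SE 1.13) with detected genes as a covariate.

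Outside the GTPases, the leading genes lower late were Serpina3g, Lgals9 and Acp5. Serpina3g, a protease inhibitor induced by interferon in lymphocytes and stem cells, was at 364, 1207 and 2196 CPM early and 281, 625 and 1093 CPM late (log2 change -1.09, SE 0.34). All 8 late libraries were below its early median. Most of the difference lay at week 3, with a mean of 1720 CPM, since week 4 averaged 706 CPM, near the 437 to 740 CPM of the late weeks. Lgals9, an interferon-induced galectin, was at 1626, 1854 and 3038 CPM early and 1004, 1338 and 2091 CPM late (log2 change -0.75, SE 0.23). For Lgals9, 6 of 8 late libraries were below the lowest early one. Acp5, an acid phosphatase of macrophages and osteoclasts, had the largest fitted change, -6.22 (SE 2.08), from 1 library: 3wk replicate 2 held 699 CPM, the other early libraries at most 33.0 and the late ones at most 7.88.

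Among lineage genes the megakaryocyte list was higher late in 17 of 18 well-expressed members, with a median log2 change of 0.51. Cavin2, a coat protein of caveolae known from platelets, was at 11.5, 30.8 and 51.2 CPM early and 33.6, 112 and 191 CPM late (log2 change 1.62, SE 0.58), with 6 of 8 late libraries above all early ones. Plek, the main substrate of protein kinase C in platelets, was at 99.8, 133 and 226 CPM early and 169, 279 and 660 CPM late (log2 change 0.94, SE 0.31), with 7 of 8 above. Both had an unadjusted p under 0.05. Pf4, a platelet chemokine, had medians of 338 and 370 CPM. Without 16wk replicates 1 and 2 all 18 were positive (median 0.71), as with RLE scaling (0.60) and with detected genes as a covariate (0.95).

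Erythroid genes were lower late in 13 of 15 well-expressed members, with a median log2 change of -0.95. Blvrb, a biliverdin reductase of red cell precursors, was at 146, 351 and 462 CPM early and 57.7, 111 and 376 CPM late (log2 change -1.22, SE 0.50), and 5 of 8 late libraries were below all early ones. Tfrc, the transferrin receptor that supplies iron, did not overlap: 68.7, 108 and 201 CPM early against 0, 21.8 and 59.9 CPM late (log2 change -2.40, SE 1.21). Car1, a carbonic anhydrase of the early erythroid line, had medians of 2952 and 1741 CPM and a late range of 95.9 to 4789. The erythroid factor Gata1 had medians of 199 and 256 CPM (log2 change -0.10, SE 0.39) and Klf1 229 and 141 CPM (log2 change -0.95, SE 0.74). Summed over 5 erythroblast markers the levels were 26.3 to 188 CPM early and 2.46 to 74.8 CPM late, with Alas2 and Slc4a1 at medians of 0; their part in the list was not tested. With detected genes as a covariate 8 of the 15 were negative (median -0.68).

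Other lineages were mixed. Plac8, expressed in myeloid and lymphoid progenitors, was at 737, 2174 and 2937 CPM early and 350, 809 and 2179 CPM late (log2 change -1.05, SE 0.47), while the granulocyte and monocyte list as a whole had a median log2 change of 0.55, with 7 of 12 positive, and of 0.22 without 16wk replicates 1 and 2. Plac8 was at 737 and 860 CPM in replicate 3 of weeks 3 and 4, and at 2179 CPM in 10wk replicate 2. Lymphoid genes were positive in 7 of 8 (median 0.89), among them Cd27, a receptor of the TNF family, at medians of 23.1 and 65.2 CPM. Without 16wk replicates 1 and 2 they were positive in 6 of 7 (median 0.74), and 0 had an unadjusted p under 0.05 in either fit. The mast cell and basophil list was split 4 to 4 (median -0.09, and 0.18 without those libraries). HSC identity genes were positive in 10 of 16 (median 0.31), with Ly6a the only one at an unadjusted p under 0.05. Of the marker lists of cells outside the gate, T and NK cell markers summed to 0 in all but 1 library (0.164 CPM), with Cd3e, Ncr1 and Klrb1c at 0 in all 14. Stromal and endothelial markers were at 0 in 11 of 14 libraries, and Ms4a1, a B cell marker, was at 0 in all 14. The B cell list summed to 17.2 to 65.5 CPM early (median 21.1) and 0 to 117 CPM late (median 58.7). Nearly all of it was Cd79b, a chain of the B cell receptor complex, at 15.6, 21.1 and 65.5 CPM early and 0, 58.7 and 117 CPM late (log2 change 0.87, SE 0.95), and its part in the results was not tested.

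The sort markers themselves were compared because a shift of the gate would show in them. Ly6a, which encodes SCA-1 and is itself induced by interferon, was at 84.4, 281 and 469 CPM early and 0, 77.9 and 112 CPM late (log2 change -2.24, SE 0.82). All 8 late libraries were below the early median and 5 below every early library, and the 2 early libraries within the late range were the third replicates of weeks 3 and 4. Cd48 had a log2 change of -1.06 (SE 0.49), with 5 of 8 late libraries below all early ones. Its level was 309 to 795 CPM at week 10 and 136 to 249 CPM at weeks 13 and 16. For Cd48, replicate 3 of weeks 3 and 4 was at 258 and 266 CPM. Kit and Slamf1 had log2 changes of -0.35 (SE 0.89) and -0.30 (SE 0.82), and Kit was at 0 in 16wk replicate 1 and at 3.99 CPM in 16wk replicate 2. Whether Ly6a and Cd48 differ with the gate or within cells cannot be told apart here.

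In metabolism the redox genes pointed 1 way. All 18 well-expressed members of the redox and iron list had a negative log2 change (median -0.47), 15 of them below the median of well-expressed genes. Gclm, the modifier subunit that sets the rate of glutathione synthesis, was at 277, 325 and 483 CPM early and 116, 250.2 and 486 CPM late (log2 change -0.70, SE 0.31), and Prdx6, a peroxiredoxin, was at 782, 1032 and 1441 CPM early and 599, 767 and 1505 CPM late (log2 change -0.46, SE 0.21). In both genes the highest late value was in 16wk replicate 1. With RLE scaling 15 of the 18 were negative, and without the 2 libraries of few detected genes 16 were. The 36 nuclear genes of oxidative phosphorylation were negative in 30 (median -0.41) with 0 at an unadjusted p under 0.05. Cox5b, a subunit of cytochrome oxidase, had medians of 550.5 and 265 CPM (log2 change -0.71, SE 0.38), and Atp5b, the catalytic subunit of ATP synthase, 824 and 1234 CPM (log2 change -0.01, SE 0.39). For Cox5b, replicate 3 of weeks 3 and 4 was at 217.5 and 288 CPM, and 10wk replicate 2 at 616 CPM. Glycolysis genes were positive in 9 of 15 (median 0.28, and 0.024 without the 2 libraries of few detected genes) and sterol synthesis genes in 7 of 12 (median 0.26).

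Growth and stress genes were mixed. Ribosome biogenesis and Myc targets were negative in 22 of 26 (median -0.34), and in 19 of 26 without 16wk replicates 1 and 2 (median -0.14). Srm, which makes the polyamine spermidine, had medians of 535 and 339.8 CPM (log2 change -0.66, SE 0.28). Of the chaperones 11 of 23 were positive (median -0.11), and 14 of 23 without those libraries (median 0.13). Hspe1 of the mitochondrion and Hsp90aa1 of the cytosol had log2 changes of -1.09 (SE 0.40) and -0.60 (SE 0.25). Pdia6 of the endoplasmic reticulum had one of 0.65 (SE 0.29). Hspe1 was at 376 and 388 CPM in replicate 3 of weeks 3 and 4, and at 698 CPM in 10wk replicate 2. Immediate early genes were positive in 14 of 17 (median 0.64), led by Dusp1, a phosphatase of MAP kinases, at 71.5, 355 and 557 CPM early and 278, 776 and 1660 CPM late (log2 change 1.24, SE 0.48). The NF-kB and chemokine list was positive in 6 of 7 (median 0.45), but in 5 of 7 without 16wk replicates 1 and 2 (median 0.25) and in 3 of 7 without the near-identical 4wk replicate 1 too (median -0.02). The homing and adhesion list was negative in 11 of 16 (median -0.16), beside 57.0% of all well-expressed genes, and split 8 to 8 without 16wk replicates 1 and 2 (median 0.03). DNA replication genes had a median of 0.01 with 18 of 29 positive (0.11 without those libraries, with 17 positive), and mitosis genes 0.24 with 19 of 25 positive. Tk1, a thymidine kinase of S phase, had medians of 192 and 281.5 CPM (log2 change 0.87, SE 0.33), and 0.48 (SE 0.24) without 16wk replicates 1 and 2. Cell cycle inhibitors and p53 targets were positive in 7 of 9 (median 0.84). That median was 0.15 without 16wk replicates 1 and 2, 0.31 with the replicate block and -0.29 with detected genes as a covariate, where 3 of 9 were positive. Of this list Cdkn2d, which holds back the kinases of G1, was at medians of 97.5 and 231 CPM (log2 change 0.88, SE 0.36). Of 14 genes reported to rise with stem cell age 8 were positive and 6 negative (median 0.32). Mt1, a metallothionein that binds zinc, was 1 of the negative ones. Its medians were 507 CPM early and 108 CPM late (log2 change -2.13, SE 0.85).

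**Figure D4:**
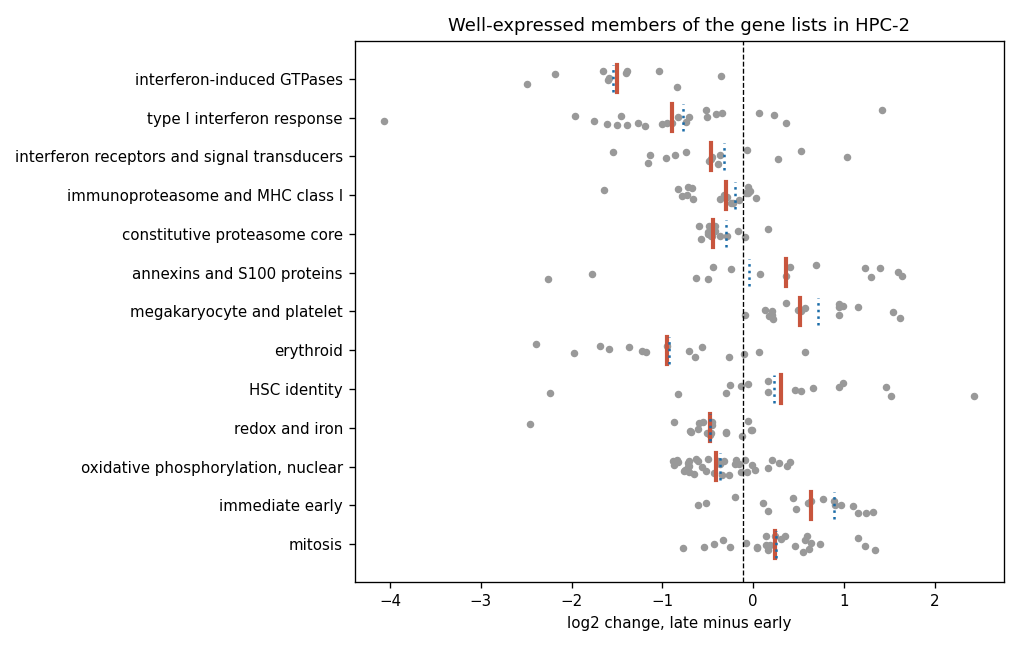
Log2 change of late minus early in HPC-2 for each well-expressed member of 13 gene lists (grey points, edgeR), with the median of each list (red line) and the median without 16wk replicates 1 and 2 (blue dotted line); the dashed line is the median of 8266 well-expressed genes. The GTPases, at a median of -1.49, have every member below the dashed line, and the annexin median moves from 0.36 to -0.04, across 0.

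The weeks between, outside the test, gave intermediate and scattered levels. Over the 9 libraries at 5, 6 and 8 weeks the medians were 116 CPM for Igtp, 322 for Tgtp2, 74.2 for Tgtp1 and 371 for Psmb9, each between the early and the late median. For Anxa2, Anxa4 and Anxa1 the medians were 71.5, 176 and 263 CPM, again between both. Tsc22d1 was at 449 CPM, above the late median of 420. Among these 9 libraries, 5wk replicate 2 nearly repeats 4wk replicate 1, and 8wk replicate 2 is close to an HPC-1 library of week 5 (chi-square of 3.82 per degree of freedom). In a slope per doubling of weeks over 23 libraries edgeR called 0 genes.

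HSC and HPC-1 libraries of the same weeks were used to see whether the differences were shared. Each population had 6 early and 9 late libraries. Neither difference of changes gave a called gene with edgeR: 0 of 12052 genes (0%) for HPC-2 against HSC, where 237 had an unadjusted p under 0.05 in the positive and 727 in the negative direction, and 0 of 12187 (0%) for HPC-2 against HPC-1, with 187 and 363. Within HSC, 328 well-expressed genes (3.95%) were higher and 312 (3.76%) lower late at an unadjusted p under 0.05, and within HPC-1 34 (0.409%) and 74 (0.89%). All 10 well-expressed GTPases were negative in HSC (median -0.52, 1 with an unadjusted p under 0.05) and in HPC-1 (median -0.73, 2 genes). The type I interferon response list was not shared in this way. It was positive in 13 of 23 in HSC (median 0.17) and negative in 17 of 23 in HPC-1 (median -0.23). The difference of HPC-2 from HSC was negative in 18 of 23 (median -0.99), and that from HPC-1 in 17 of 23 (median -1.115). Over all well-expressed genes the median change was -0.18 in HSC and -0.05 in HPC-1. Their median difference was 0.14 for HPC-2 against HSC and -0.01 for HPC-2 against HPC-1. Lists of those populations are to be read against these levels.

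Igtp had nearly the same change in the 3 populations: -1.59 (SE 0.41) in HPC-2, -1.44 (SE 0.55) in HSC and -1.68 (SE 0.39) in HPC-1. Iigp1 was alike, at -2.19, -1.45 and -1.61. Tgtp2 and Tgtp1 were near level in HSC (-0.16, SE 0.40, and -0.01, SE 0.56), where Tgtp1 had medians of 129 CPM early and 120.4 CPM late. In HPC-1 both were negative, as were all 10 well-expressed GTPases. The difference of HPC-2 minus HSC for Tgtp1 was -2.45 (SE 0.82, adjusted p = 0.341 with edgeR); without libraries under 10000 detected genes it was -2.87 (adjusted p = 0.0450). Psmb9 changed by -0.41 (SE 0.26) in HSC and -0.25 (SE 0.21) in HPC-1, and its difference from HPC-2 was -0.31 (SE 0.37) and -0.47 (SE 0.30).

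Anxa4 was positive in all 3 populations, at 1.40, 0.91 and 0.95 in HPC-2, HSC and HPC-1. Anxa2 was positive in HPC-2 and negative in HSC (-1.25, SE 0.90) and HPC-1 (-0.17, SE 0.36). The difference for Anxa2 was 2.92 (SE 1.34) from HSC and 1.83 (SE 0.52) from HPC-1, and neither passed with edgeR (adjusted p = 0.547 in both fits). The lowest adjusted p of the HSC comparison was that of Tuba8, at 0.0731: its change was 1.04 in HPC-2 and -1.24 in HSC, a difference of 2.31 (SE 0.43), where HSC medians went from 346 CPM early to 149.8 late. Without libraries under 10000 detected genes edgeR called it (adjusted p = 0.0284). Redox genes were negative in 18 of 18 in HPC-2, in 7 of 18 in HSC and in 6 of 18 in HPC-1. The nuclear genes of oxidative phosphorylation were negative in 30 of 36 in HPC-2, in 15 of 36 in HSC and in 10 of 36 in HPC-1. Mitochondrial genes took 0.29% to 0.83% of counts in early HSC libraries and 1.12% to 2.84% in late ones. In HPC-1 the shares were 0.63% to 1.49% early and 0.74% to 2.01% late. In HPC-2 they were 0.32% to 2.18% early (median 1.51%) and 0.31% to 2.00% late (median 0.561%). The part of this share in the contrasts between populations was not tested. The megakaryocyte list was positive in 17 of 18 in HPC-2, in 12 of 18 in HPC-1 (median 0.46) and in 4 of 18 in HSC (median -0.54). Its median difference of HPC-2 from HPC-1 was 0.28. Mitosis genes were positive in 19 of 25 in HPC-2 and negative in 25 of 25 in HSC, and the median difference was 1.67 with 7 of the 25 at an unadjusted p under 0.05, against 175 of 8307 well-expressed genes in that direction (median difference 0.14). In HPC-1 they were negative in 23 of 25, and the median difference was 0.57 with 1 of the 25 at that threshold, against 116 of 8315 in that direction.

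**Figure D5:**
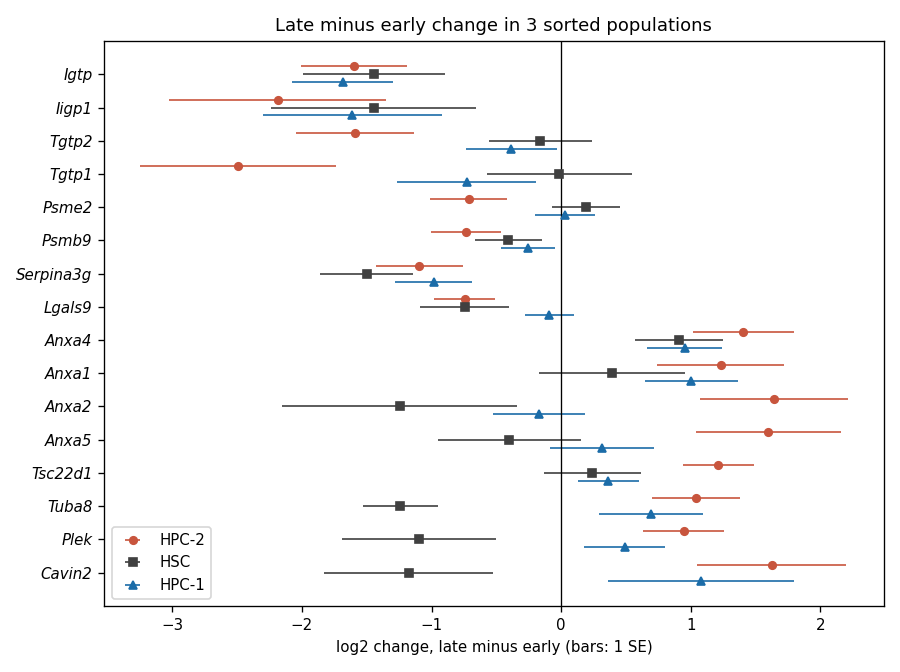
Log2 change of late minus early (edgeR estimate, bars 1 SE) for 16 genes in HPC-2 (red circles), HSC (dark squares) and HPC-1 (blue triangles). Igtp and Anxa4 lie on the same side in all 3 populations at similar sizes, whereas Tgtp1 is at -2.49 in HPC-2 and -0.01 in HSC, and Tuba8, Plek and Cavin2 are positive in HPC-2 and negative in HSC. Tgtp1 is also negative in HPC-1. The whole megakaryocyte list, not plotted, was positive in 12 of 18 in HPC-1 (median 0.46).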

How the data were processed

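The deposited table holds raw counts of reads per gene for 95 libraries, made by the authors; per the submitters' processing notes they used Trimmomatic 0.36, HISAT2 2.0.5, Picard and featureCounts on GRCm38 (mm10). The strand setting and the annotation are not given in the sources used here; without strand, reads of overlapping genes cannot be told apart. Groups and weeks came from the sample titles. Counts were normalized by TMM and tested with the edgeR 4.0.16 quasi-likelihood test after filterByExpr, with Benjamini-Hochberg adjustment over all genes tested (threshold 0.05), late against early in the 14 libraries alone; differences from HSC and HPC-1 were interaction terms in fits over both populations. A log2 change is the late minus early coefficient of that fit, and a CPM is a count divided by the total count of its library, with no further scaling. Alternatives used DESeq2 1.42.0, limma 3.58.1, RLE scaling, other filters, a replicate block, detected genes as a covariate and left-out libraries, in R 4.3.3; tables and figures were made with Python 3.11.15, pandas 2.3.3 and matplotlib 3.10.9. The fits were tested on simulated data.

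The members and the gene lists were chosen with earlier results of these data known, so no list is independent evidence of its direction. Where no gene was called, the 6 well-expressed genes of each direction with the smallest p were named, with Tgtp2, Psmb9, Anxa2, the sort markers and up to 4 members of each list with the smallest p. Lgals1 and other members of the lists were named for their role after their values were seen. Total counts of 4766628 to 8492759 per library set the precision, and a level of 0 CPM says only that no read was counted. Gene positions and promoters are those of GRCm38.p6, from RefSeq for promoters and GENCODE M21 for exons.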

Additional observations from a re-analysis of the deposited data

Results flagged for a closer look

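In 9 of 92 groups of values tested, 1 library stood apart from the rest of its group (its gap to the nearest value took an unusually large share of the range on the log2(CPM + 1) scale), and chance alone does this in about 1 of 20 groups. In 4wk replicate 2 the early values of 3 genes stood apart: Anxa5 was at 24.76 CPM against 107.3 to 222.2 in the other early libraries, and Slamf1 and Ifit1 were at 0.0 CPM against 57.76 to 143.1 and 20.4 to 52.78. Ifngr1 in 4wk replicate 3 was at 563.4 CPM against 231.4 to 300.8. Among late libraries Anxa2 was at 11.51 CPM in 10wk replicate 3 against 83.33 to 217.6 in the others, and Ly6a at 0.0 CPM in 13wk replicate 2 against 14.43 to 112.0. In 16wk replicate 1, a library with few detected genes, Lgals1 was at 0.0 CPM against 24.84 to 341.4 and Prdx6 at 1505 CPM against 599 to 903.2. In 16wk replicate 2 Cd74 was at 9375 CPM against at most 33.79.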

How the results depend on the processing

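The late against early comparison was refitted under 28 alternatives fixed with the design and 5 chosen after seeing the data. Counts of called genes other than 0 higher and 0 lower came from DESeq2 (2 higher, Anxa4 and Fanci, and 0 lower). Others came from voom with sample weights (0 and 4), RLE scaling (0 and 1) and 13wk replicate 1 put back (0 and 1). The fit of 1 mean per week gave 2 and 518, of which 255 were well expressed. Among genes named with full values it called Tgtp2, Acp5, Ifit1, Ly6a, Blvrb and Hspe1 lower and Anxa4 and Tsc22d1 higher. The main fit pooled libraries because means by week give large falls to genes with no count in 1 week. Leaving out 1 library at a time gave 0 higher throughout and 0 to 2 lower, the 2 without 13wk replicate 3 (Cebpd and Gstp3, both under 10 CPM). Of the alternatives chosen after seeing the data, without 16wk replicates 1 and 2 voom gave 0 and 1 and DESeq2 2 (Lims1 and Tsc22d1) and 5 (Tgtp1, Igtp, Iigp1, Osbpl7 and Gstp3), and a spread shared with HPC-1 gave 1 and 5; the cause was not tested. Early and late libraries share replicate numbers, but same-numbered libraries did not deviate together on average (mean correlation 0.032 over 16 pairs, 5 over 0.1). Single pairs varied. Early libraries of replicate 3 stood at 0.14 to 0.27 with replicate 3 of weeks 13 and 16, and at -0.26 with that of week 10. The fit with a replicate block called 0 genes in either direction.

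The difference from HSC gave 1 higher gene (Tuba8, 2.39, adjusted p of 0.0241 with edgeR) with the replicate block, and 1 higher (Tuba8) and 1 lower (Tgtp1) without libraries under 10000 detected genes. Leaving out 1 library gave 0 to 1 higher and 0 to 3 lower, the highest without HPC-2 10wk replicate 3 (Tuba8 higher, and Zfp36l2, mt-Rnr1 and mt-Rnr2 lower); without HPC-2 16wk replicate 2 Tuba8 was also called. The difference from HPC-1 gave 0 higher and 0 to 3 lower, the 3 without HPC-2 10wk replicate 1 (Fbxw4, Pcp4l1 and Slc16a11, all under 10 CPM).

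Of 43 genes named with full values, 40 kept their sign in every alternative, and 17 of 1417 values reversed. Slamf1 reversed with voom (0.095) and with voom without 16wk replicates 1 and 2 (0.074). Kit reversed with detected genes as a covariate (0.81), and without those libraries with edgeR (0.056), DESeq2 (0.10) and the 10 CPM filter (0.062). Cd74 reversed with DESeq2 (-1.84), voom (-1.88), the replicate block (-0.39), the covariate (-1.58) and 1 mean per week (-0.073). Without both 16-week libraries Cd74 was at -1.90 with edgeR, -1.83 without the near-identical library too, -1.92 with voom, -1.89 with DESeq2 and -1.90 with the 10 CPM filter. Leaving out 1 library gave Cd74 a range from -2.12 (without 16wk replicate 2, the library that holds its counts) to 3.96. Depth limits genes near 0 CPM, whose fold changes rest on few reads.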
